A study of Xenopus laevis with 79 samples.

Results

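The premigratory neural crest (NC) and the placode region (Pc) of Xenopus laevis embryos at stage (St.) 17 were compared. Members were chosen by label: all 4 St. 17 libraries whose tissue is given as neural crest and both St. 17 libraries whose tissue is given as placode, which is 6 of the 79 libraries of the series. The series maps ectoderm pieces cut from neurulae by hand, together with whole embryos. All embryos were wild type and untreated, and each dissected library came from an ectoderm explant lifted off the mesoderm. The study states that mesoderm cells at times stayed attached to posterior pieces. The NC explants were the crest before it leaves the neural fold, and the Pc explants were the ectoderm just lateral to it. Beside these, 6 anterior neural border (NBa) and 5 anterior neural fold/preplacodal (ANF/PPE) libraries of St. 14 and 2 whole-embryo libraries of St. 16-17 were used. Levels in 3 anterior nonneural ectoderm (NNEa) libraries of St. 14 are given for some loci and lists.

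The neural crest forms at the edge of the neural plate. Border genes such as pax3, zic1 and msx1 act first, and crest specifiers such as snai2, foxd3 and sox10 follow before the cells turn mesenchymal and migrate into the head. Placodes form from the ectoderm outside the crest under factors such as eya1, and give rise to the lens, the ear, the nose, the lateral line and cranial sensory ganglia. X. laevis is allotetraploid, so that many genes have a long (L) and a short (S) homeolog, written here as .l and .s after the gene name.

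The study screened its explants by quantitative PCR before sequencing. The primers for the crest gene snai2 and the muscle gene myod1 are shown because both genes were part of that screen.
snai2 forward: cacacgttaccctgcgtatg
snai2 reverse: tctgtctgcgaatgctctgt
myod1 forward: tacactgacagccccaatga
myod1 reverse: tgcagaggagaacagggact
The snai2 pair was designed on the transcript that RefSeq names snai2.L, on chromosome 6L, and the myod1 pair on the one named myod1.L, on chromosome 4L. In the count table snai2 (locus xelaev18031998m.g) had 887, 949, 735 and 823 CPM in NC replicates 1 to 4, against 19.8 and 4.27 CPM in Pc replicates 1 and 2. CPM are fragment counts relative to library size after TMM scaling, and libraries are given in this order below. A second snai2 locus, xelaev18033703m.g, was lower, with 41.6, 42.5, 14.1 and 66.7 CPM in NC, against 5.13 and 1.40 CPM in Pc. Neither numbered locus carries an L or S label. The myod1.l locus had 0, 0.0784, 0 and 0 CPM in NC, against 0.171 and 0 CPM in Pc, while whole embryos averaged 42.6 CPM. Thus snai2 separated the groups and myod1 was near 0 in both. Explants were chosen by the study with these markers, so the values are no independent check of the labels.

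The 6 libraries were of like depth, with 12522988 to 13996468 counts on 45099 loci. Over 20515 tested loci, log2 CPM of 2 NC libraries correlated at 0.954 to 0.972 (6 pairs, Pearson's r across loci), of the Pc libraries at 0.973, and of an NC and a Pc library at 0.843 to 0.884 (8 pairs). With 2 Pc libraries, the spread within Pc rests on a single difference. The study calls the St. 17 libraries biological replicates. It states separate embryos and clutches where it describes the replicates of the earlier dissected stages. For all libraries it states that each was made from a single piece of a single embryo. Adjacent pieces of an embryo were chosen where the study could do so. The labels give the 6 St. 17 libraries no embryo number, so whether an NC and a Pc library share an embryo is not known. In bulk tissue, fewer cells of a type and less RNA per cell cannot be told apart.

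The comparison asks which transcripts separate crest from placode before the crest migrates. Of 20515 loci, 6493 (31.7%) differed at a false discovery rate (FDR) of 0.05 in edgeR's quasi-likelihood test, 2589 (12.6%) higher in NC and 3904 (19%) higher in Pc. Changes over 2-fold were found at 1713 loci higher in NC and 3281 higher in Pc, and changes over 8-fold at 566 higher in NC and 414 higher in Pc. The median difference over all tested loci was 0.06 on the log2 scale, NC over Pc. NC and Pc libraries did not overlap at 10973 loci (53.5%), and 25 of the called loci overlapped. Scaled by total counts alone, the median moved to 0.17 and the calls split into 3522 higher in NC and 3495 higher in Pc. Without Pc replicate 1 there were 3863 calls and without Pc replicate 2 there were 2664, in fits that take the remaining Pc library to vary like the NC ones.

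**Figure D1:**
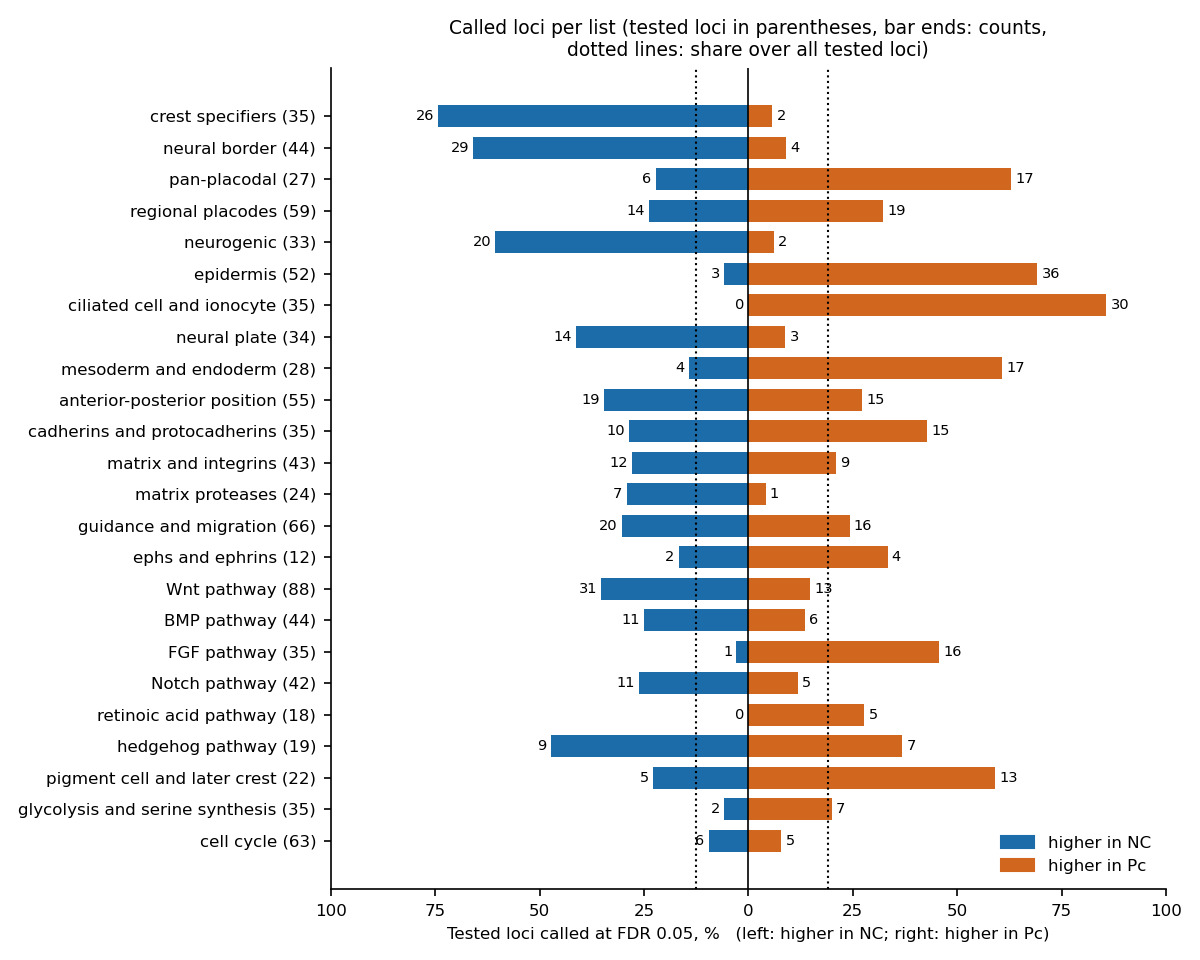
Share of the tested loci of each gene list that was called at FDR 0.05 (x axis, percent), to the left for loci higher in NC and to the right for loci higher in Pc. Numbers in parentheses are tested loci, numbers at the bars are called loci, and dotted lines give the shares over all tested loci, 12.6% and 19%. Crest specifiers (26 of 35) and neural border genes (29 of 44) lean to NC, and ciliated cell and ionocyte genes (30 of 35) and epidermis genes (36 of 52) lean to Pc.

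Crest specifiers had the highest median difference toward NC of all lists. The counts of this list and of those below stand beside 12.6% of all tested loci higher in NC and 19% higher in Pc. Of 35 tested loci, 26 were higher in NC, 2 were higher in Pc and 7 did not pass, with a median log2 difference of 3.43 beside 0.06 over all loci. Their summed level was 7337 to 8140 CPM in the 4 NC libraries, against 1511 and 1027 CPM in the Pc libraries and 2752 and 2955 CPM in whole embryos. sox10.l, a SoxE factor of the crest, had 664, 537, 612 and 608 CPM in NC, against 1.54 and 2.02 CPM in Pc. The libraries of each group lay close together and far from the other group, and the difference was 8.40 ± 0.25 (log2, SE; adjusted p = 2.3e-07, edgeR). sox10.s followed it with 500, 496, 449 and 456 CPM in NC, against 1.11 and 1.63 CPM in Pc. The related sox8.l reached 935, 701, 687 and 768 CPM in NC, against 2.14 and 2.25 CPM in Pc (8.45 ± 0.26).

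foxd3.l, a forkhead factor that keeps crest cells multipotent, had 213, 142, 227 and 134 CPM in NC, against 0 and 0.155 CPM in Pc. Pc held 2 counts in all, so the fitted difference is no measure of size: the ratio of counts was 2195 (95% interval 607 to 18120, counting error only). The same held for foxd3.s, with 45.3 to 104 CPM in NC and 2 counts in Pc. kal1.l, which codes for the secreted protein anosmin, had 173, 154, 137 and 130 CPM in NC, against 5.65 and 6.67 CPM in Pc (4.59 ± 0.23, adjusted p = 7.5e-06). Further specifiers, chosen after their values were seen, behaved likewise. tfap2e.s was 6.63 ± 0.34 higher in NC, twist1.l 5.17 ± 0.35, tfap2b.s 4.91 ± 0.29 and sox9.s 4.04 ± 0.33 (log2, SE), with adjusted p of 6.3e-05 or below. The lowest Pc value among these 4 was 1.16 CPM for tfap2e.s, so that Pc held detectable crest transcripts.

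Within the list the homeologs did not always move together. traf4.l, a copy of an adaptor of receptor signaling, had 326, 386, 357 and 355 CPM in NC, against 16.3 and 16.2 CPM in Pc (4.45 ± 0.18, adjusted p = 2.5e-06). traf4.s had 2.98, 6.19, 7.76 and 7.61 CPM in NC, against 6.67 and 5.58 CPM in Pc, and the groups overlapped. For myc, locus xelaev18032361m.g had 338 to 365 CPM in NC, against 81.9 and 71 CPM in Pc (2.22 ± 0.16, adjusted p = 3.1e-05). Its other locus, xelaev18034007m.g, had 143 to 242 CPM in NC, against 212 and 181 CPM in Pc (adjusted p = 0.95). ets1 showed the same split: xelaev18037330m.g was 2.77 ± 0.28 higher in NC, and xelaev18035277m.g had 132 to 221 CPM in NC, against 195 and 96.2 CPM in Pc (adjusted p = 0.67). id2, an inhibitor of basic helix-loop-helix factors, was the exception in sign. id2.l had 25.5, 12.1, 21.2 and 16.4 CPM in NC, against 112 and 73 CPM in Pc (-2.29 ± 0.29), and id2.s differed by -1.46 ± 0.29.

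**Figure D2:**
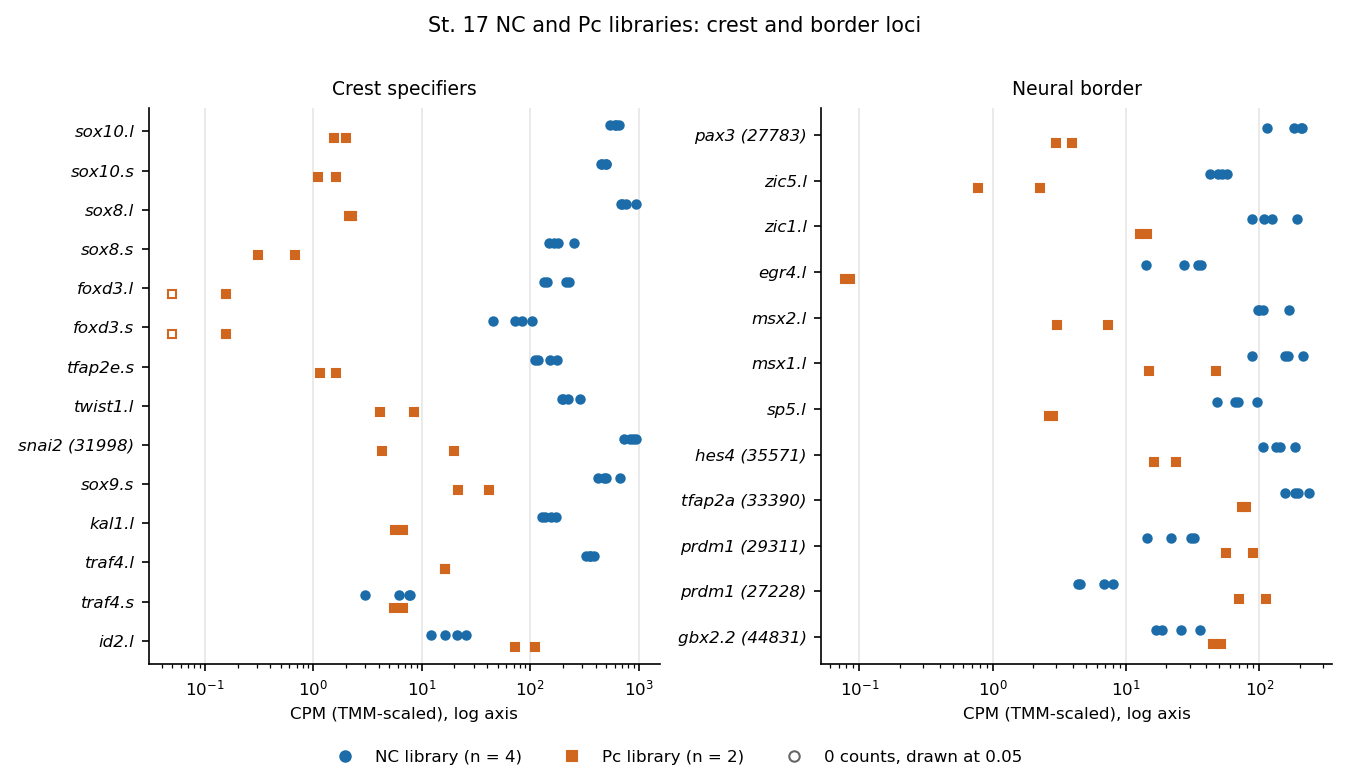
CPM of crest specifier loci (left) and neural border loci (right) on a log axis, with blue circles for the 4 NC libraries and orange squares for the 2 Pc libraries. Open symbols are 0 counts, drawn at 0.05, and numbers in parentheses are the last digits of a numbered locus. sox10.l lies at 537 to 664 CPM in NC and at 1.54 and 2.02 CPM in Pc, traf4.s overlaps, and id2.l, prdm1 and gbx2.2 lie higher in Pc.

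Border genes were higher in NC than in Pc at St. 17. Their summed level was 3053 to 4376 CPM in NC, against 1725 and 1881 CPM in Pc. At St. 14 it was 5840 to 7954 CPM in NBa and 5682 to 6123 CPM in NNEa, so the sum was not particular to the border. Of 44 tested loci, 29 were higher in NC, 4 higher in Pc and 11 did not pass (median 1.77), with 2 higher in Pc when NC replicate 2 or either Pc library was left out. pax3 (locus xelaev18027783m.g) had 114, 206, 207 and 182 CPM in NC, against 2.99 and 3.96 CPM in Pc (5.67 ± 0.35, adjusted p = 1.5e-05). Every NC library was far above Pc although NC replicate 1 was lower than the other 3. zic5.l, of the Zic zinc-finger family, had 42.6, 48.7, 52 and 56.9 CPM in NC, against 0.770 and 2.25 CPM in Pc (5.03 ± 0.40). sp5.l, a target of Wnt signaling, had 96.3, 65.5, 69.3 and 48.2 CPM in NC, against 2.82 and 2.64 CPM in Pc (4.67 ± 0.35). msx2.l, a homeobox gene responsive to BMP, was 4.51 ± 0.42 higher in NC, and hes4 (xelaev18035571m.g), a Hairy-type repressor, 2.82 ± 0.28. egr4.l had 14.0 to 36.5 CPM in NC and 2 counts in Pc, a ratio of 340 (93.8 to 2806).

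Other border genes separated less. tfap2a (xelaev18033390m.g), an AP-2 factor of border and epidermis, had 196, 156, 234.3 and 183 CPM in NC, against 73.6 and 79.7 CPM in Pc (1.33 ± 0.19, adjusted p = 0.0010). prdm1, a zinc-finger repressor, was higher in Pc at both loci. At xelaev18027228m.g it had 4.51, 7.91, 6.78 and 4.36 CPM in NC, against 111 and 70.4 CPM in Pc (-3.95 ± 0.29, adjusted p = 3.5e-05), and at xelaev18029311m.g the difference was -1.56 ± 0.32, with adjusted p = 0.060 without Pc replicate 1. The other loci called higher in Pc were the gbx2.2 loci xelaev18044831m.g (-0.99 ± 0.29) and xelaev18047280m.g (-1.15 ± 0.39). Their adjusted p rose to 0.076 and 0.31 without Pc replicate 1 and to 0.17 and 0.069 without Pc replicate 2. It was also above 0.05 without NC replicate 2 (0.065 and 0.096), and for 1 locus each without NC replicate 3 (0.056) or NC replicate 4 (0.055).

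Genes listed as marking all placodes were mostly higher in Pc than in NC. Of 27 tested loci, 17 were higher in Pc, 6 higher in NC and 4 did not pass (median -1.48), with 3 higher in NC without Pc replicate 2. The summed level of the list was 544 to 716 CPM in NC, against 1633 and 1442 CPM in Pc. Whole embryos had 1370 and 1440 CPM, so Pc lay near them and NC below them. eya1.1, a transcriptional coactivator of the placode program, had 24.5, 18.6, 25.4 and 27.5 CPM in NC, against 80.1 and 104 CPM in Pc (-1.94 ± 0.21). The groups did not overlap, but eya1.1 was not near 0 in NC. six4.s, eya1.s, eya2.l and eya2.s, chosen after their values were seen, differed by -1.48, -1.47, -1.73 and -2.66, all below an adjusted p of 0.05. six4.s averaged 82.1 CPM in Pc and 80.9 CPM in NNEa at St. 14, whereas eya2.l averaged 22.8 and 1.97 CPM.

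Genes that nonneural ectoderm also expresses were higher in Pc as well. gata3 (xelaev18020919m.g) had 7.35, 6.82, 9.56 and 7.68 CPM in NC, against 93 and 82.9 CPM in Pc (-3.48 ± 0.20, adjusted p = 1.3e-05). gata2, another GATA factor of ventral ectoderm, differed by -2.90 ± 0.19 (xelaev18025905m.g) and -2.77 ± 0.26 (xelaev18023995m.g). dlx3.s, a homeobox gene of nonneural ectoderm, had 46.8, 31.5, 43.1 and 43.3 CPM in NC, against 153 and 143 CPM in Pc (-1.84 ± 0.19). foxi1.l, needed for otic ectoderm in zebrafish, had 4.80, 7.91, 19.3 and 2.08 CPM in NC, against 98.8 and 85.5 CPM in Pc (-3.44 ± 0.61).

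The dlx5 and dlx6 genes, linked neighbors in vertebrates, were higher in NC although they are placed on this list. dlx6.s had 76, 47.6, 75.3 and 41.6 CPM in NC, against 10.0 and 11.3 CPM in Pc (2.49 ± 0.32, adjusted p = 5.3e-04). dlx6.l was 3.39 ± 0.44 and dlx5.l 1.35 ± 0.26 higher in NC. dlx5.s was 1.18 ± 0.29 higher, with adjusted p = 0.066 without Pc replicate 1 and 0.12 without Pc replicate 2. eya3.s was 0.89 ± 0.23 higher in NC, with adjusted p = 0.11 and 0.12 in the same 2 fits.

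Genes of single placodes went both ways, where 12.6% of all tested loci were higher in NC and 19% higher in Pc. Their summed level was 1085 to 1357 CPM in NC, against 1704 and 1511 CPM in Pc. Whole embryos had 1737 and 1898 CPM, so neither group lay above them. Of 59 tested loci, 19 were higher in Pc, 14 higher in NC and 26 did not pass (median -0.30), and without Pc replicate 1 there were 8 higher in NC. tbx1, a T-box factor of the otic region and pharynx, was higher in Pc at both copies. tbx1.l had 5.09, 5.80, 9.34 and 3.32 CPM in NC, against 192 and 142 CPM in Pc (-4.83 ± 0.33, adjusted p = 2.7e-05), and tbx1.s differed by -4.66 ± 0.32. sall1.l, a zinc-finger gene, had 40.7, 50.6, 47.2 and 63.6 CPM in NC, against 222 and 184 CPM in Pc (-2.01 ± 0.19). isl1.l, of sensory progenitors, and irx2.l, of posterior placodal ectoderm, differed by -1.89 ± 0.24 and -1.28 ± 0.17.

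Other loci of the list were higher in NC. mafb.l, a bZIP gene of hindbrain segments, had 147, 109, 217 and 102 CPM in NC, against 1.11 and 1.40 CPM in Pc (6.83 ± 0.45, adjusted p = 2.5e-05). mafb.s was 7.39 ± 0.53 higher in NC, and the sensory neuron gene tlx3 was 2.48 ± 0.41 (tlx3.s) and 1.73 ± 0.31 (tlx3.l) higher. lhx5.l, a LIM homeobox gene, had 21.1 to 35.5 CPM in NC and 3 counts in Pc, a ratio of 216 (73.8 to 1049). pax2.s, a gene of the otic placode and midbrain, had 12.1, 23.7, 46.9 and 26 CPM in NC, against 6.07 and 1.55 CPM in Pc (2.84 ± 0.65), with adjusted p = 0.075 without Pc replicate 2. pax8, the early gene of the otic placode, did not separate the groups. Its locus xelaev18018610m.g had 70.01, 46.2, 78.2 and 43.7 CPM in NC, against 72.7 and 52.3 CPM in Pc, with adjusted p = 0.87.

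**Figure D3:**
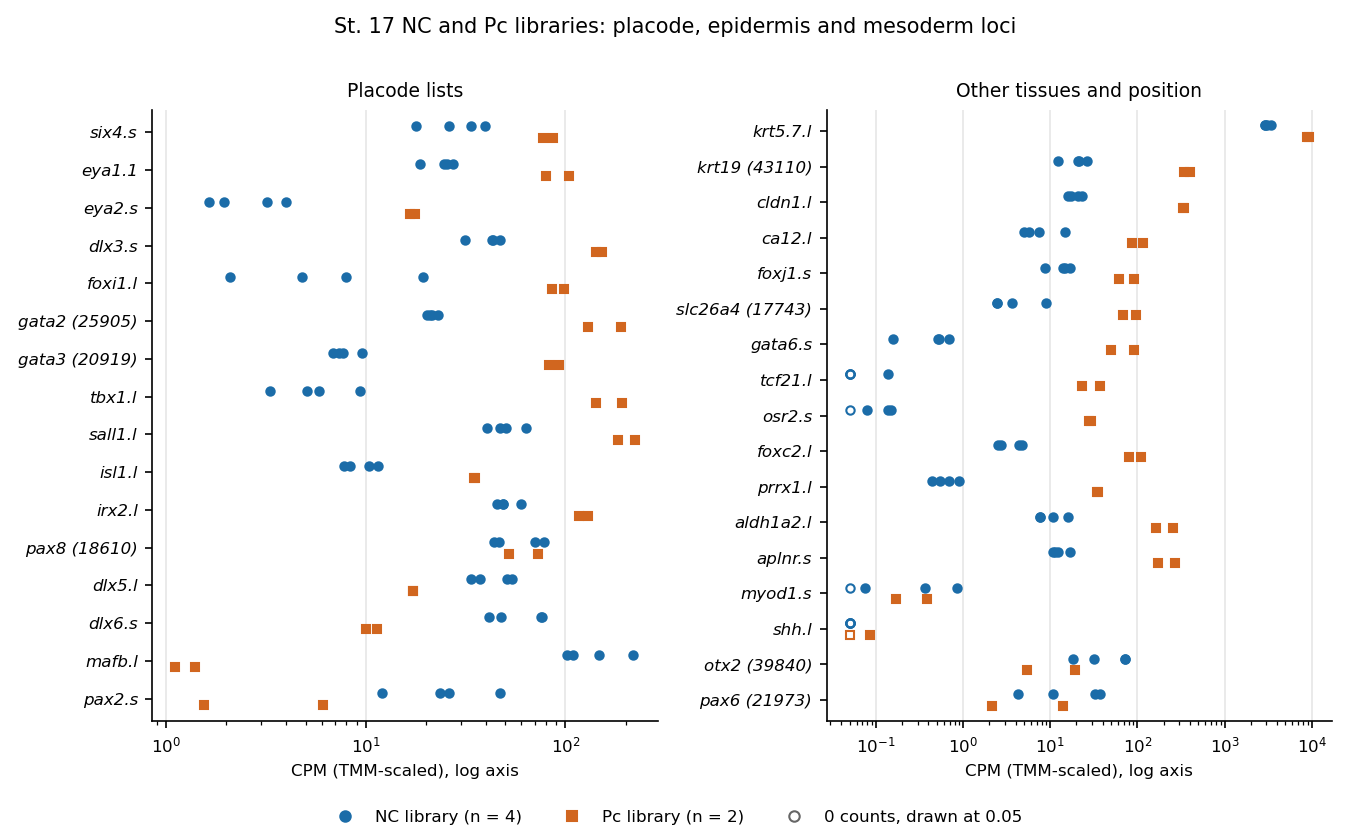
CPM of placode-list loci (left) and of epidermis, ciliated cell, ionocyte, mesoderm and anterior loci (right) on a log axis, with symbols as in the plot of crest and border loci. eya1.1 lies at 18.6 to 27.5 CPM in NC and at 80.1 and 104 CPM in Pc, pax8 overlaps, and dlx5.l, dlx6.s, mafb.l and pax2.s lie higher in NC. On the right, tcf21.l and osr2.s are at or near 0 in NC only, and myod1.s and shh.l are at or near 0 in both groups.

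eya1 and tbx1 were called higher in Pc, but the anterior placode genes pitx1.l, pax6 and otx2 were not. pitx1.l, of the oral and lens-forming ectoderm, had 0, 0.705, 0.0753 and 1.73 CPM in NC, against 1.37 and 4.58 CPM in Pc (adjusted p = 0.15). pax6 (xelaev18021973m.g), the eye and lens gene, had 10.8, 32.8, 4.22 and 37.7 CPM in NC, against 2.14 and 14.0 CPM in Pc (adjusted p = 0.26). otx2 (xelaev18039840m.g), of head ectoderm and forebrain, had 32.1, 71.9, 18.2 and 71.8 CPM in NC, against 5.39 and 19.1 CPM in Pc. It was 1.98 ± 0.65 higher in NC (adjusted p = 0.042), but the groups overlapped and the call was lost without NC replicate 2 (0.086), NC replicate 4 (0.082) or Pc replicate 1 (0.23), and with DESeq2 (0.050) or limma-voom (0.059). NC replicates 2 and 4 were the higher ones for both pax6 and otx2, and Pc replicate 2 was higher than Pc replicate 1. For the hindbrain genes egr2.l (102, 60.2, 111 and 60.6 CPM in NC) and mafb.l the order within NC was turned round. Not every posterior gene followed that order: hoxb1.l had 18.1, 28.7, 22.8 and 14.3 CPM in NC. The libraries of a group thus differed in the levels of pax6, otx2, egr2.l and mafb.l, and the part of this in the differences above was not tested.

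Of 55 tested loci on the list of anterior-posterior position, 19 were higher in NC, 15 higher in Pc and 21 did not pass (median 0.23). Among all tested loci 12.6% were higher in NC and 19% higher in Pc, and the list's share higher in Pc was not far above that. Segmental hindbrain and midbrain genes were higher in NC. egr2.l, of rhombomeres 3 and 5, had 0.684 and 0.310 CPM in Pc and was 7.38 ± 0.50 higher in NC (adjusted p = 2.6e-05). wnt1.l, of the dorsal midbrain, had 19.1, 27.4, 19.0 and 19.7 CPM in NC and 1 count in Pc, a ratio of 521 (93.3 to 20590). wnt1.s had 9.75 to 21.7 CPM in NC and no count in Pc, so that it was at least 130-fold higher in NC (floor of 3 counts over the Pc libraries). Hox genes split. hoxd1.s and hoxc5.s, chosen after their values were seen, were higher in Pc (-3.16 ± 0.48 and -4.90 ± 0.73). hoxd3.s had 3.29 to 7.76 CPM in NC and 1 count in Pc, a ratio of 120 (21.4 to 4762). hoxb1.s, of rhombomere 4, did not pass (58.2 to 89.1 CPM in NC, against 80.8 and 38.8 CPM in Pc; adjusted p = 0.56).

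NC held more neurogenic transcript than Pc. Beside the counts of this list, 12.6% of all tested loci were higher in NC and 19% higher in Pc. Of 33 tested neurogenic loci, 20 were higher in NC, 2 higher in Pc and 11 did not pass (median 1.53), and 13 were higher in NC without Pc replicate 1. The summed level was 953 to 1260 CPM in NC, against 438 and 539 CPM in Pc. pou4f1.2.l, a POU gene of sensory neurons, had 41.8, 36.3, 26.6 and 32.5 CPM in NC, against 2.48 and 2.09 CPM in Pc (3.90 ± 0.31, adjusted p = 5.2e-05). The tubulin genes tubb3.l and tubb2b.s, of neurons, were 3.71 ± 0.33 and 3.96 ± 0.36 higher in NC. Higher in Pc was ebf2, a factor of neuronal differentiation: ebf2.s had 15.3, 12.0, 11.2 and 16.1 CPM in NC, against 43.3 and 42 CPM in Pc (-1.64 ± 0.22). ebf2.l differed by -0.70 ± 0.21 and lost the call without NC replicate 2 (0.067), NC replicate 3 (0.053), Pc replicate 1 (0.067) or Pc replicate 2 (0.24).

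Neural plate loci were higher in NC at 14 of 34 tested, higher in Pc at 3 and not called at 17 (median 1.39). Among all tested loci 12.6% were higher in NC and 19% higher in Pc, and this list's share higher in Pc was below that. The count higher in NC was 9 without Pc replicate 1 and 7 without Pc replicate 2, and 6 were higher in Pc without NC replicate 4. The summed level of the list was 474 to 698 CPM in NC, against 468 and 432 CPM in Pc and 1004 and 1080 CPM in whole embryos. sox2.1, of the neural plate, did not pass (6.77, 19.7, 6.63 and 14.4 CPM in NC, against 8.81 and 8.84 CPM in Pc). Genes of the neural tube followed. olig3.s (3.60 to 8.66 CPM) and dbx1.l (3.61 to 9.69 CPM), chosen after their values were seen, had no count in Pc and were at least 49.3-fold and 49-fold higher in NC. rfx4.l had 12.37, 17.2, 15.0 and 31.1 CPM in NC and 3 counts in Pc, a ratio of 157 (53.5 to 762). Among ventral genes, foxa2.s, of the floor plate and notochord, had 49.9, 22.9, 24.9 and 31.6 CPM in NC and 2 counts in Pc, a ratio of 400 (110 to 3302). Its homeolog foxa2.l had 0.0784 CPM or less in every NC library, 0 in Pc and 20.1 CPM on average in whole embryos, and shh.l, the ventral signal, had 0 in every NC library. The S locus of foxa2 thus stood apart from its L copy and from shh in NC. irx3.l and irx3.s, of the posterior neural plate, were higher in Pc (-1.86 ± 0.30 and -1.83 ± 0.28).

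Pc held more epidermal transcript than NC. Of 52 tested epidermal loci, 36 were higher in Pc, 3 higher in NC and 13 did not pass (median -1.19), with 1 and 0 higher in NC when Pc replicate 1 or Pc replicate 2 was left out. The list summed to 18480 to 22600 CPM in NC, against 50810 and 53070 CPM in Pc. The larval keratin krt5.7.l had 3111, 2881, 2949 and 3448 CPM in NC, against 8882 and 9328 CPM in Pc (-1.56 ± 0.12, adjusted p = 4.9e-05). Every NC library thus held larval keratin as well. krt19 (xelaev18043110m.g) had 12.37, 20.9, 26.5 and 21.2 CPM in NC, against 400 and 340 CPM in Pc (-4.19 ± 0.25, adjusted p = 1.5e-05), and krt12.l differed by -2.56 ± 0.19. The tight-junction gene cldn1.l had 16.2, 23.0, 21.0 and 17.3 CPM in NC, against 344 and 331 CPM in Pc, the smallest p of the loci higher in Pc (-4.12 ± 0.18, adjusted p = 3.6e-06). tp63.l, a regulator of basal epidermis, did not pass (50.7 to 107 CPM in NC, against 77.2 and 39.8 CPM in Pc; adjusted p = 0.47). tfap2c was higher in NC at xelaev18043492m.g (1.03 ± 0.19, adjusted p = 0.053 without Pc replicate 2).

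Ciliated cells and ionocytes are the scattered cells of the embryonic skin. Of 35 tested loci, 30 were higher in Pc and 5 did not pass (median -2.31), and the list summed to 326 to 524 CPM in NC, against 1543 and 2155 CPM in Pc and 898 and 765 CPM in whole embryos. foxj1.s, which switches on motile cilia, had 13.9, 8.78, 16.6 and 14.6 CPM in NC, against 62.0 and 92.1 CPM in Pc (-2.51 ± 0.27, adjusted p = 2.3e-04). ca12.l, a carbonic anhydrase of ionocytes, had 5.75, 7.44, 14.7 and 5.05 CPM in NC, against 87.1 and 115 CPM in Pc (-3.62 ± 0.37). slc26a4 (xelaev18017743m.g), an anion exchanger, differed by -4.24 ± 0.46. foxi4.1.s, a forkhead gene, had 0.138 to 0.235 CPM in NC, against 21.7 and 18.8 CPM in Pc (-6.71 ± 0.36, adjusted p = 9.35e-06). The part of these cells in the differences of gata2, gata3, dlx3 and foxi1 above was not tested.

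**Figure D4:**
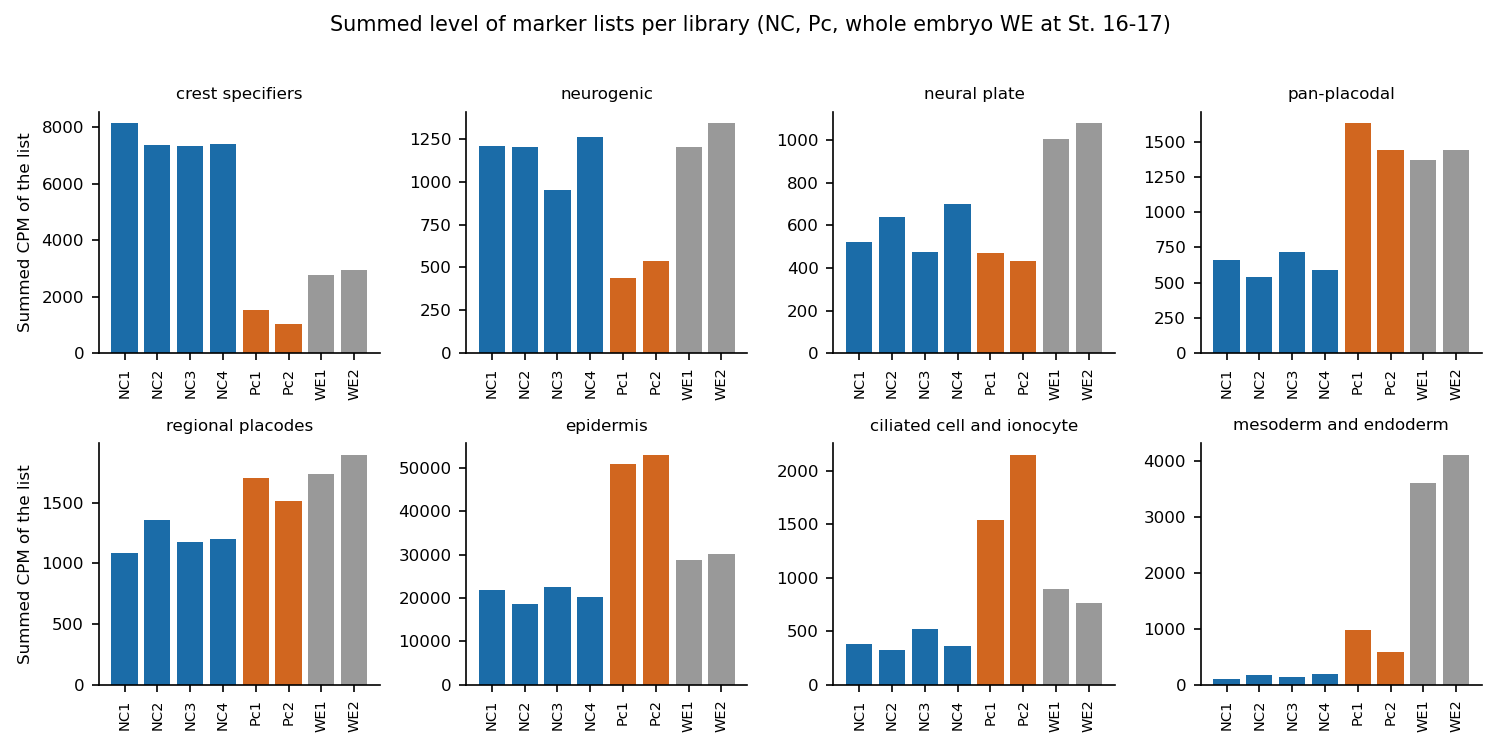
Summed CPM of 8 marker lists (y axes, from 0) in the 4 NC (blue), 2 Pc (orange) and 2 whole-embryo (gray) libraries. Epidermis sums to 18480 to 22600 CPM in NC and to 50810 and 53070 CPM in Pc, and mesoderm and endoderm to 96.6 to 183 CPM in NC and to 968 and 581 CPM in Pc.

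Mesoderm transcripts were higher in Pc. Of 70 loci on the mesoderm and endoderm list, 28 passed the count minimum. Of these, 17 were higher in Pc, 4 higher in NC and 7 did not pass (median -3.50), with 6 and 7 higher in Pc, and 2 and 1 higher in NC, when Pc replicate 1 or Pc replicate 2 was left out. The list summed to 96.6 to 183 CPM in NC, against 968 and 581 CPM in Pc and 3600 and 4115 CPM in whole embryos. The whole-embryo sum includes muscle genes such as actc1.l (495 CPM on average). Other loci of the list, chosen after their values were seen, differed in this. foxc2.s averaged 59.3 CPM in Pc and 46.3 CPM in whole embryos, and foxc1.s 16.6 and 15.9 CPM. meox2.s averaged 10.4 and 33.5 CPM, and gata4.l 7.92 and 24.2 CPM. gata6.s, of heart and endoderm, had 0.509, 0.157, 0.527 and 0.692 CPM in NC, against 92.5 and 50.4 CPM in Pc (-7.20 ± 0.40, adjusted p = 9.6e-06). tcf21.l, of pharyngeal and lateral mesoderm, had 2 counts in NC, against 37.2 and 23.1 CPM in Pc, so that it was 809-fold higher in Pc by counts (223 to 6689). foxc2.l, of head and paraxial mesoderm, had 4.44, 2.51, 2.71 and 4.71 CPM in NC, against 110 and 80.6 CPM in Pc (-4.72 ± 0.29). Neither osr2.s nor prrx1.l, of intermediate and limb-type mesenchyme, is on this list. They were also near 0 in NC (0 to 0.151 CPM and 0.437 to 0.904 CPM), against 27.8 to 29.3 CPM and 34.2 to 35.3 CPM in Pc.

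Not all of mesoderm was present. The muscle genes myod1.s and actc1.l had at most 0.862 CPM in NC and at most 0.388 CPM in Pc, while whole embryos averaged 134 and 495 CPM. The study states that samples with the least myod1 were selected, so low muscle values were favored by that choice. gata4.l, of heart mesoderm, had at most 0.151 CPM in NC and was uneven in Pc, at 14.3 and 1.55 CPM. The apelin receptor aplnr.s had 10.8 to 16.9 CPM in NC, against 270 and 172 CPM in Pc and 114 CPM on average in whole embryos. The matrix protein fn1.l had 71.8, 102, 97.4 and 168 CPM in NC, against 992 and 947 CPM in Pc (-3.14 ± 0.27). Of the 70 loci, 13 had no count in NC and 14 none in Pc. tbx1, the integrins and the retinoic acid genes below are expressed in pharyngeal mesoderm as well, and the part of this tissue in their differences was not tested. NC held few such transcripts, with not.s, of the notochord, uneven at 1.89, 14.7, 0.226 and 5.54 CPM. not.s had 1 count in Pc and lost its call without Pc replicate 1 (0.092) or Pc replicate 2 (0.16), and with limma-voom (0.22).

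Among Wnt genes, calls in both directions were found. Of 88 tested Wnt loci, 31 were higher in NC, 13 higher in Pc and 44 did not pass (median 0.44), where 12.6% of all tested loci were higher in NC and 19% higher in Pc. axin2.l, a feedback target that reads out Wnt activity, had 180, 104, 147 and 124 CPM in NC, against 7.01 and 9.23 CPM in Pc (4.09 ± 0.29, adjusted p = 3.3e-05). Higher in Pc were the receptor genes fzd8.s and fzd8.l (-4.42 ± 0.45 and -3.10 ± 0.34) and the Wnt inhibitor dkk1.l, with 2.18, 1.72, 0.828 and 1.18 CPM in NC, against 22.2 and 14.6 CPM in Pc (-3.63 ± 0.39). A Wnt target was thus higher in NC and a Wnt inhibitor higher in Pc.

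In the BMP list 11 loci were higher in NC, 6 higher in Pc and 27 of 44 did not pass (median 0.20). Over all tested loci 12.6% were higher in NC and 19% higher in Pc, and the list's share higher in Pc was not above that. bmpr1b.s, a type I receptor, had 139, 123, 179 and 114 CPM in NC, against 0.941 and 1.78 CPM in Pc (6.65 ± 0.36, adjusted p = 9.35e-06), and bmpr1b.l was 5.55 ± 0.44 higher. The ligand gene bmp5.l had 27.7, 27.8, 33.0 and 19.2 CPM in NC, against 0.342 and 0.0776 CPM in Pc (6.98 ± 0.52). The ligand gene bmp4.l went the other way, with 13.2 to 14.7 CPM in NC, against 37.6 and 27.6 CPM in Pc (-1.20 ± 0.22).

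Of 35 tested FGF loci, 16 were higher in Pc, 1 higher in NC and 18 did not pass (median -0.75), beside 19% of all tested loci higher in Pc. The locus higher in NC, the receptor gene fgfr4.s, differed by 0.60 ± 0.20 and lost the call without NC replicate 2 (0.081), NC replicate 3 (0.081), Pc replicate 1 (0.18) or Pc replicate 2 (0.23). fgfrl1.l, a decoy-type receptor, had 3.49, 2.74, 2.79 and 2.01 CPM in NC, against 86.3 and 61.2 CPM in Pc (-4.74 ± 0.26, adjusted p = 9.6e-06). The ligand gene fgf8.l had 5.89, 3.68, 3.69 and 3.12 CPM in NC, against 32.1 and 17.8 CPM in Pc (-2.60 ± 0.34), and the feedback inhibitor spry1.l differed by -2.08 ± 0.32. Of 18 tested retinoic acid loci, 5 were higher in Pc and 13 did not pass (median -0.64). With so few loci this share is not far from the 19% of all loci, and nothing is read from it. aldh1a2.l, which codes for the enzyme that makes retinoic acid, had 7.57, 7.60, 16.2 and 10.7 CPM in NC, against 254 and 162 CPM in Pc (-4.30 ± 0.31, adjusted p = 3.5e-05). rdh10.1, which makes its precursor retinal, differed by -2.58 ± 0.25 and dhrs3.s, which turns retinal back, by -2.64 ± 0.26.

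Notch and hedgehog loci were called in both directions, where 12.6% of all tested loci were higher in NC and 19% higher in Pc. Of 42 tested Notch loci, 11 were higher in NC, 5 higher in Pc and 26 did not pass (median 0.53). The share of Notch loci higher in Pc was not above that of all loci. hes2.l, a repressor gene, had 24.7, 14.3, 15.1 and 10.1 CPM in NC, against 0.428 and 0.0776 CPM in Pc (5.97 ± 0.65), and hes1.l, another, was higher in Pc (-2.50 ± 0.37). Of 19 tested hedgehog loci, 9 were higher in NC, 7 higher in Pc and 3 did not pass (median 0.25). The coreceptor gene boc.l had 76.3, 47.8, 82.3 and 54.4 CPM in NC, against 7.44 and 8.61 CPM in Pc (3.02 ± 0.30), whereas the coreceptor gene gas1.l was higher in Pc (-1.79 ± 0.22).

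Genes of guidance and migration were called in both directions. cxcr4.s, the receptor that draws crest cells forward, had 285, 252, 233 and 176 CPM in NC, against 21.1 and 26.7 CPM in Pc (3.31 ± 0.25, adjusted p = 3.7e-05). The gene of its ligand, cxcl12.l, had 43.4, 47.9, 53.8 and 40.1 CPM in NC, against 468 and 401 CPM in Pc (-3.23 ± 0.16, adjusted p = 7.5e-06). Receptor and ligand genes lay on opposite sides, with no overlap for either. The semaphorin receptor nrp2 was 3.83 ± 0.25 (xelaev18047368m.g) and 3.52 ± 0.24 (xelaev18044956m.g) higher in NC, and plxna2.l, a plexin gene, was higher in Pc (-1.83 ± 0.20). Over the list 20 of 66 tested loci were higher in NC, 16 higher in Pc and 30 did not pass (median 0.31). Among all tested loci 12.6% were higher in NC and 19% higher in Pc. Of 12 eph and ephrin loci, 2 were higher in NC, 4 higher in Pc and 6 did not pass (median 0.26). With so few loci nothing is read from these eph and ephrin counts. epha4 (xelaev18029854m.g) was 1.86 ± 0.34 higher in NC and ephb3 was higher in Pc (-1.39 ± 0.24 at xelaev18029533m.g).

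Among 35 cadherin and protocadherin loci, 10 were higher in NC, 15 higher in Pc and 10 did not pass (median -0.15). Over all tested loci 12.6% were higher in NC and 19% higher in Pc. cdh2, the N-cadherin gene (xelaev18031953m.g), had 141, 133, 191 and 136 CPM in NC, against 52.5 and 46.1 CPM in Pc (1.61 ± 0.21). cdh1.s, the E-cadherin gene, had 358 to 397 CPM in NC, against 821 and 882 CPM in Pc (-1.15 ± 0.13). cdh11, a cadherin of migrating crest in Xenopus, was higher in Pc at this stage. cdh11.s had 1.09, 0.235, 0.452 and 0.831 CPM in NC, against 25.8 and 16.6 CPM in Pc (-4.99 ± 0.47, adjusted p = 1.2e-04), and pcdh8.2.s, the paraxial protocadherin, differed by -5.49 ± 0.38. pcdh8.2.s is also on the mesoderm and endoderm list. The part of mesoderm in the differences of cdh11 and pcdh8.2.s was not tested.

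Of 43 matrix and integrin loci, 12 were higher in NC, 9 higher in Pc and 22 did not pass (median 0.34). Over all tested loci 12.6% were higher in NC and 19% higher in Pc, and the list's share higher in Pc was near that. The fibronectin receptor gene itga5.l had 272, 218, 392 and 293 CPM in NC, against 78.3 and 89.5 CPM in Pc (1.81 ± 0.24), and vim.l, an intermediate filament gene, was 1.58 ± 0.23 higher. itga4.l went the other way, with 2.69, 3.92, 5.35 and 3.32 CPM in NC, against 92.8 and 54.6 CPM in Pc (-4.27 ± 0.31). Of 24 matrix protease loci, 7 were higher in NC, 1 higher in Pc and 16 did not pass (median 0.54). adam11.l, of the ADAM family, had 103, 110, 77.2 and 64.8 CPM in NC, against 0.856 and 0.776 CPM in Pc (6.75 ± 0.37, adjusted p = 9.4e-06), mmp15.s was 3.21 ± 0.33 and mmp14.l 1.90 ± 0.28 higher. The call higher in Pc was adamts18.l (-2.18 ± 0.54), with adjusted p = 0.15 without Pc replicate 2.

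On the list of pigment cell and later crest genes 13 of 22 tested loci were higher in Pc, 5 higher in NC and 4 did not pass (median -1.35). Over all tested loci 19% were higher in Pc and 12.6% higher in NC. alx4.l, a homeobox gene of frontonasal crest, had 21.0, 29.1, 21.1 and 34.6 CPM in NC, against 0.171 and 0.388 CPM in Pc (6.50 ± 0.48), and sox5.s was 2.27 ± 0.40 higher. Higher in Pc were prrx1.l and kitlg.s, the gene of the ligand that melanoblasts follow, with 2.98, 3.21, 3.46 and 5.47 CPM in NC, against 23.5 and 45.3 CPM in Pc (-3.18 ± 0.34). prrx1.l was given above beside mesoderm loci. The part of mesoderm in the differences of the pigment cell and later crest list was not tested. Of 35 glycolysis and serine synthesis loci, 2 were higher in NC, 7 higher in Pc and 26 did not pass (median -0.49). This list's share higher in Pc was near that of all tested loci, and its share higher in NC was below. pfkfb4 (xelaev18025735m.g), a regulator of glycolysis, had 93.4, 112, 372 and 141 CPM in NC, against 18.1 and 20.6 CPM in Pc (3.21 ± 0.57), and the lactate transporter gene slc16a3 (xelaev18043762m.g) had 34.0 to 97.7 CPM in NC, against 408 and 539 CPM in Pc (-2.98 ± 0.34). Cell cycle genes mostly did not pass: 52 of 63 tested loci did not pass, 6 were higher in NC and 5 higher in Pc (median 0.18). Both shares were below those of all tested loci.

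Among called loci with a mean of 10 CPM or more in the higher group and no overlap, the 10 with the largest fitted differences in each direction were taken. Where a group had 0 or few counts, the fitted difference depends on the fit and its rank is no measure of size. Beside genes already described, those higher in NC held olig4.l, an Olig-type factor (22.7 to 30.8 CPM in NC and 1 count in Pc), and lmx1a.l, a LIM homeobox gene of the roof plate. lmx1a.l had 5.46, 9.95, 19.2 and 10.7 CPM in NC and no count in Pc, at least 92.3-fold higher in NC. tspear.l had 2.69, 46.2, 23.3 and 26.5 CPM in NC and no count in Pc, at least 199-fold higher, but its call was lost with limma-voom (adjusted p = 0.10). loc100496394.l was uneven within NC, at 63.6, 0.157, 78.5 and 0.346 CPM, and its call was lost without either Pc library (adjusted p = 0.19 and 0.21) and with limma-voom (0.51). The unnamed loci xelaev18021895m.g and xelaev18030175m.g had 13.5 to 62.7 CPM and 11.5 to 46.3 CPM in NC, with 1 and 0 counts in Pc. Higher in Pc, loc548390-like.l had 0.138 CPM or less in NC, against 64.1 and 41.1 CPM in Pc, and loc100487498.l had 2 counts in NC, against 38.4 and 26 CPM in Pc.

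At St. 14, NBa and ANF/PPE were set beside NC and Pc, although Pc was not nearest to ANF/PPE at every locus. hoxd1.s averaged 46.8 CPM in Pc, 111 CPM in NNEa and 1.61 CPM in ANF/PPE, and pitx1.l 2.97, 0 and 112 CPM. eya2.l, with 22.8, 1.97 and 5.05 CPM, was nearer to ANF/PPE. These loci were chosen after their values were seen. The test of the difference between the 2 contrasts called 884 of 21855 loci (4.04%), 327 (1.5%) shifted toward NC and 557 (2.55%) toward Pc. Without Pc replicate 1 it called 151, without Pc replicate 2 154, without NC replicate 1 527 and without NC replicate 2 384. It called 533 with the first library of each St. 14 embryo alone and 2312 with the undivided St. 14 neural border in place of NBa. Of 71 tested loci of the anterior-posterior list, 7 shifted toward NC and 28 toward Pc. The part that the choice of ANF/PPE has in these shifts was not tested. In this fit 456 loci were called at both stages in the same direction and 61 in opposite directions. Stage and dissection cannot be told apart here, since no region was cut at both stages under the same name.

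Of the 41 crest, border and placode loci at or above 10 CPM that the naming rule gave, 12 changed. Over all tested loci the share was 4.04%. The 41 loci were picked by their St. 17 difference, which also enters this test. The count is therefore not read as a result about these loci. traf4.l averaged 40.2 ± 15.7 CPM in NBa (SD, n = 6) and 50.6 ± 10.8 CPM in ANF/PPE (n = 5) at St. 14, a log2 difference of -0.32, and was higher in NC at St. 17. These libraries are not all separate embryos: by the labels 5 NBa libraries came from 4 embryos and the other has no embryo number, and the 5 ANF/PPE libraries came from 4 embryos, with 2 embryos in both groups. The shift was 4.72 ± 0.46 (adjusted p = 5.6e-05, edgeR). dlx6.s was lower in NBa at St. 14 (51.8 ± 16.8 CPM in NBa and 126 ± 43.1 CPM in ANF/PPE, log2 difference -1.27) and higher in NC at St. 17, a shift of 3.71 ± 0.51 (adjusted p = 9.8e-04). These 2 changes held when each St. 17 library was left out in turn, and the other 10 did not. pax3 (xelaev18027783m.g), lhx5.l, sp5.l and sox8.l also lost the call with limma-voom, with or without the embryo as a block. dlx6.l, dlx5.l and dlx5.s shifted toward NC by 4.39, 2.34 and 2.97, with adjusted p of 0.074, 0.14 and 0.094 without Pc replicate 1 and of 0.051, 0.16 and 0.11 without Pc replicate 2. zic5.l shifted by 4.30 and prdm1 (xelaev18027228m.g) by -4.34, with adjusted p of 0.066 and 0.069 without Pc replicate 1. pax3 (xelaev18027783m.g), lhx5.l and sp5.l shifted toward NC by 3.69, 6.86 and 3.43, with adjusted p of 0.10, 0.12 and 0.11 without Pc replicate 1 and of 0.079, 0.16 and 0.13 without Pc replicate 2. sall1.l shifted by -1.37 and lost the call without NC replicate 2 (0.051), Pc replicate 1 (0.14) or Pc replicate 2 (0.074). sox8.l shifted by 4.59 and lost it without any of the 6 libraries (adjusted p of 0.059 to 0.24).

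The integrin gene itga4, named under matrix genes, had opposite signs at the 2 stages. itga4.s was higher in NBa at St. 14 (2.15 ± 1.13 CPM in NBa and 0.517 ± 0.262 CPM in ANF/PPE) and lower in NC at St. 17, a shift of -5.67 ± 0.67 (adjusted p = 3.7e-04). itga4.l shifted by -7.61 ± 1.07, and irx3.l, chosen with it after their values were seen, by -4.20 ± 0.70.

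**Figure D5:**
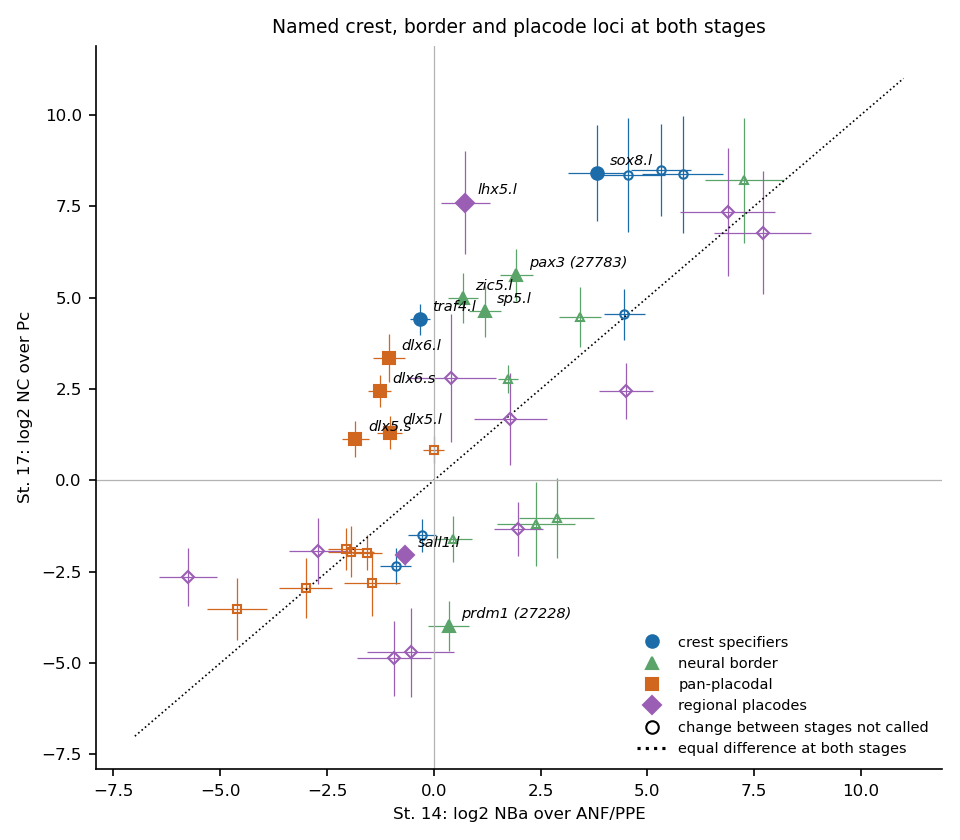
Log2 difference of the 41 named crest, border and placode loci between NBa and ANF/PPE at St. 14 (x axis) and between NC and Pc at St. 17 (y axis), with SE bars from the fit over the 4 groups. Filled symbols with names are the 12 loci whose difference changed between the stages, and the dotted line marks equal differences. traf4.l lies near 0 at St. 14 and above 4 at St. 17, and the dlx5 and dlx6 loci lie below 0 at St. 14 and above 0 at St. 17.

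The ratio of L to S copies was compared within libraries for 4470 pairs in which both copies passed the count minimum. The ratio differed between NC and Pc for 569 pairs (12.7%), with more L in NC for 279 (6.24%) and more L in Pc for 290 (6.49%). In 212 of these the copy with more counts was not the same in NC and Pc. Counts were not corrected for transcript length, so this need not be the more abundant copy. Without Pc replicate 1 the test called 166 pairs, without Pc replicate 2 155, and without NC replicate 2 368. Both copies were called higher in NC in 274 pairs and higher in Pc in 474. They were called in opposite directions in 53, and exactly 1 copy was called in 1349.

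Among the pairs with the smallest p, the following each held a copy near 0 or far lower in 1 region. For ppip5k1, an inositol phosphate kinase, the L copy had 33.1, 50.6, 36.2 and 35.7 CPM in NC, against 50.7 and 40.3 CPM in Pc, and the S copy 1.16, 0.784, 0.828 and 0.415 CPM in NC, against 41.8 and 38 CPM in Pc. Only the S copy separated the groups, and log2 L over S was 4.94 in NC and 0.18 in Pc (limma, difference 4.76 ± 0.31, adjusted p = 1.4e-04). For acaa2, a thiolase of mitochondria, the S copy had 2.55, 5.49, 2.79 and 6.44 CPM in NC, against 140 and 118 CPM in Pc, while the L copy had 6.78 to 15.6 CPM in NC, against 11.5 and 15.1 CPM in Pc (4.40 ± 0.29). For afap1l1, an actin-filament adaptor, the S copy was found in NC (14.8 to 29.8 CPM) and had 0.0856 and 0 CPM in Pc, so that L over S was lower in NC (-4.16 ± 0.26). cmtm5 (5.68 ± 0.30) had relatively more L in NC.

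The sample sheet of the study numbers NC replicates 1 and 2 in 1 series, and lists them as neural border, and NC replicates 3 and 4 and both Pc libraries in another. NC replicates 1 and 2 differed from replicates 3 and 4 at 3 of 20515 loci (0.0146%) in edgeR's quasi-likelihood test, while 1142 (5.57%) had an unadjusted p under 0.05. With limma-voom there were 0 calls. The locus xelaev18030155m.g had 0.0728 and 0 CPM in NC replicates 1 and 2, against 58.5 and 31.4 CPM in replicates 3 and 4, and 59.6 and 100.5 CPM in Pc. xelaev18041713m.g had 52.5 and 40.0 CPM in replicates 1 and 2, against 0.151 and 0.692 CPM in replicates 3 and 4, and 0.342 and 0.310 CPM in Pc. With replicates 3 and 4 alone 4243 loci differed from Pc, and with replicates 1 and 2 alone 5831. By the titles, NC replicate 1 has another library prefix than NC replicates 2 to 4 and both Pc libraries. The split above does not follow this prefix, whose meaning the labels do not give. Without NC replicate 1, 6224 loci differed from Pc.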

How the data were processed

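RNA-seq was made from dissected ectoderm of X. laevis neurulae and from whole embryos. Per the labels and the study's methods, the authors built strand-specific poly(A) libraries, mapped paired reads with TopHat2 2.0.14, left out pairs that mapped to several places, and counted fragments per locus with HTSeq on gene models merged with their own assembly. The deposited values are these raw counts for 45099 loci. The summary entries of the counter (17.6 to 20.4% of the entries of a library) were left out.

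The libraries were grouped by label. A locus was kept when 2 or more of the fitted libraries held over 10 counts of it. Libraries were scaled by TMM and tested with edgeR 4.0.16 (quasi-likelihood F-test, R 4.3.3) at an FDR of 0.05 by the Benjamini-Hochberg method over all loci tested. The St. 14 and St. 17 contrasts were set against each other in a single fit over their 4 groups. Homeolog ratios, log2 of L over S with 0.5 CPM added to each, were tested with limma 3.58.1. Groups at 0 counts were set at a floor of 3 counts, and ratios over 1 to 3 counts carry an exact 95% interval, which covers counting error only.

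Names come from the table (24413 loci) and, for 1134 numbered loci, from the study's annotation, which matched them by sequence, so that these names are less certain. Named loci are the 6 (crest, border and placode lists) or 3 (other lists) called loci per direction with the smallest p at 10 CPM or more, the 10 largest differences and the 5 smallest p per direction. Loci outside this rule, mostly defining markers (such as snai2, myod1, otx2 and pax8) and second copies of named genes (such as traf4.s and those of myc and ets1), were chosen after their values were seen. The loci and gene lists were chosen with earlier results of these data known. Levels were not compared between genes, for which no lengths were used. Alternatives were DESeq2 1.42.0, limma-voom, other scalings and count minimums, a robust fit, the embryo as a block (limma's duplicateCorrelation) for the St. 14 contrast, all 63 dissected libraries in a single fit, and leaving out each library. The tests were tested on simulated data. Some genes that met the naming rule are not reported here.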

Additional observations from a re-analysis of the deposited data

Results flagged for a closer look

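In 11 of 197 loci checked (5.58%), 1 of the 4 NC libraries stood apart from the other 3, its gap to the nearest of them, as a share of the range of the group, being over the 95% critical value of Dixon's test. Chance gives about 1 in 20, so the share is near that, but NC replicate 3 was the library that stood apart at most of these loci. The cause was not tested. NC replicate 3 was the high library for bmpr1b.l (0.8443 of the range), msx2.l (0.8939), pfkfb4 at xelaev18025735m.g (0.8293), epha4 at xelaev18029854m.g (0.8498), cdh2 at xelaev18031953m.g (0.8743), cdh11.l (0.9288) and zic1.s (0.8525). zic1.s had 47.6, 39.8, 117 and 35.6 CPM in NC, and cdh11.l had 1.75, 0.784, 14.3 and 0.831 CPM. NC replicate 3 was also the low library for myc at xelaev18032361m.g (0.865). NC replicate 1 was the high library for rdh10.1 (0.8436), and NC replicate 2 for wnt1.l (0.9191) and the unnamed xelaev18030175m.g (0.8908).

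The named crest, border and placode loci were picked by their St. 17 difference, which enters the test of the change. Over all tested loci, 4.04% changed. The difference between the regions changed from St. 14 to St. 17, by the edgeR test of the change itself, at 12 of these named loci. On the log2 scale, St. 17 minus St. 14, it shifted toward NC for lhx5.l (6.86), traf4.l (4.724), sox8.l (4.588), dlx6.l (4.393), zic5.l (4.3), dlx6.s (3.714), pax3 at xelaev18027783m.g (3.688), sp5.l (3.431), dlx5.s (2.967) and dlx5.l (2.336). It shifted toward Pc for prdm1 at xelaev18027228m.g (-4.337) and sall1.l (-1.374), and, among loci chosen after their values were seen, for itga4.l (-7.614), itga4.s (-5.674) and irx3.l (-4.198).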

How the results depend on the processing

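Of the 155 loci named by rule, 27 lost the call without at least 1 library, 15 of them without Pc replicate 1 and 26 without Pc replicate 2. With all 63 dissected libraries sharing a spread, 57 lost it, with limma-voom 3, with total counts 3 and with DESeq2 0. No called difference changed sign.

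The calls between NC and Pc ran to 3048 with all 63 libraries (1058 higher in NC, 1990 higher in Pc) and to 4243 with NC replicates 3 and 4 alone (1458 higher in NC). Leaving out a library gave 2664 to 6224 calls (850 to 2435 higher in NC, 1814 to 3877 higher in Pc). The change from St. 14 gave 2312 calls with undivided neural border in place of NBa (750 toward NC, 1562 toward Pc) and 533 with the first library of each embryo (194 toward NC, 339 toward Pc). Leaving out a library gave 151 to 666 (25 to 258 toward NC, 120 to 408 toward Pc). Homeolog pairs numbered 155 to 540 without a library (70 to 252 with more L in NC, 85 to 289 with more L in Pc), and 450 had more L in Pc with 5 CPM added. Between the numbering series limma-voom called 0, 0 in either direction. The cause of these changes was not tested. Scaled by total counts alone, 50.2% of calls were higher in NC, against 39.9% with TMM, and the median moved to 0.173.

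No paired analysis was possible because the labels give the St. 17 libraries no shared replicate number or embryo. At St. 14 2 embryos gave both an NBa and an ANF/PPE library. With the embryo as a replicate block in limma-voom, chosen after seeing the data, the change from St. 14 gave 1031 calls (225 toward NC, 806 toward Pc), against 1024 in limma-voom with no block, and the same loci named for a change kept the call in both. A lost call does not show that levels are equal.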
